A study of Homo sapiens with 18 samples.

Results

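The Hedgehog pathway was followed through 9 genes: the ligands SHH and IHH, the receptor PTCH1, the ligand-binding antagonist HHIP, the co-receptors BOC and GAS1, and the transcription factors GLI1, GLI2 and GLI3. They were taken by symbol from the deposited count table of 35025 genes, and all 9 were among the 15531 genes with enough counts to test. The cells were foregut endoderm differentiated from the wild-type human embryonic stem cell line H1, sampled by bulk RNA-seq in 6 groups of 3 libraries. At day 6 the groups were untreated cells and cells given all-trans retinoic acid (RA) at 2 µM for 24 h up to that day. At day 9 they were untreated cells, cells that had received the same RA pulse, cells given 2 µM CHIR99021 with 50 ng/mL BMP4 for 72 h (called CHIR/BMP4 below), and cells given RA first and CHIR/BMP4 afterwards. CHIR99021 inhibits GSK3 and so activates WNT signalling, BMP4 is a bone morphogenetic protein, and the labels describe the combination as a mimic of the signals that induce respiratory fate. Every group came from this single line, and whether replicates came from different cultures is not labelled, so each p-value reflects library-to-library spread that may be technical.

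Hedgehog ligands are secreted proteins that bind PTCH1 on the receiving cell. Without ligand, PTCH1 holds the membrane protein SMO inactive and GLI3, and to a lesser degree GLI2, is processed to a repressor, whereas ligand releases SMO and allows full-length GLI proteins to activate transcription. PTCH1, HHIP and GLI1 are themselves target genes of the pathway, so their RNA is commonly read as its output. In the foregut the epithelium makes SHH and the surrounding mesenchyme responds, and loss of Shh in mice leaves the trachea and oesophagus unseparated.

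Levels are given as counts per 1000000 after library scaling (CPM), with the standard deviation over n = 3 libraries. Levels of different genes are compared per length with the deposited transcripts per 1000000 (TPM). A gene was called where edgeR's quasi-likelihood test over all 15531 genes gave a Benjamini-Hochberg adjusted p below 0.05. Between 42.8% and 65.1% of all tested genes were called in each comparison of 2 groups, so a call on its own did not set a member apart.

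A difference in read make-up ran beside the groups. In 64 genes treated libraries and the untreated ones other than day 6 replicates 1 and 3 lay at least 10-fold apart. Pseudogenes made up 93.8% of the 64, against 3.65% of the 13723 genes of at least 2 CPM. With each gene scaled to its own mean, the share of level from genes high in treated libraries was 1.22% to 1.92% in untreated day 9 and 98.0% to 98.5% in every treated library. The genes were picked for the gap between these libraries, so these shares follow from the choice. The untreated replicates 1 and 3 of day 6 took no part in it and lay between, at 23.6% and 40.7%. Replicate 2, which did take part, was at 0.976%. None of the 9 Hedgehog genes was among the 64. RA at day 6, RA at day 9 and CHIR/BMP4 without RA each set treated against untreated libraries, so their counts are also given with this read make-up as a covariate. The 3 comparisons within treated libraries (RA before CHIR/BMP4, CHIR/BMP4 after RA and day 9 against day 6 after RA) did not cross this difference. Library totals ran from 5.79 to 25.37 M counts (1 M is 1000000). All 8 foregut epithelium markers had reads in every group, with a summed level of 3609 to 11509 CPM. In bulk RNA, fewer cells expressing a gene and less RNA per cell cannot be told apart.

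The ligand and target sequences below show what the read counts rest on and where the pathway's own transcription factors could bind. SHH and IHH encode related proteins, and over 1219 aligned bases of their coding sequence (GENCODE 29 transcripts) 70.4% were identical. Their longest identical run was 26 bases, in exon 2 of both genes, at coding bases 364 to 389 of SHH and 379 to 404 of IHH. It is shown in capitals with its flanks, at chr7:155806454-155806509 for SHH and chr2:219057591-219057646 for IHH, both on the minus strand of GRCh38.
SHH: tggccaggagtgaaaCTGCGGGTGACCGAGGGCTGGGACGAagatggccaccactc
IHH: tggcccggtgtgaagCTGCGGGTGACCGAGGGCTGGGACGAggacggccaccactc
The flanks differ within a few bases of the run on either side.

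The 250 bases before the transcription start are shown for both ligands, whose levels moved most, and for PTCH1, the principal target gene. They are RefSeq promoter sequences on GRCh38.p14, all from the minus strand and written in the direction of transcription, and 7 of the 9 genes (13 windows) had an entry. PTCH1 had 5 windows, and the one shown was chosen because it alone among them holds the motif marked in capitals. The bases shown lay at chr9:95509267-95509516. Their capitals mark the reverse complement of GACCACCCA, the sequence that GLI proteins bind, at chr9:95509430-95509438, starting at base -172 from the transcription start.
PTCH1: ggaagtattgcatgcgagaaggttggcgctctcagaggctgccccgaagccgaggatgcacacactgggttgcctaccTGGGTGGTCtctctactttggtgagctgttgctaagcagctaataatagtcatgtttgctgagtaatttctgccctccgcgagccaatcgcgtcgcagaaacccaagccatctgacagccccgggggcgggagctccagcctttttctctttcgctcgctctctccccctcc
The search covered both strands of the whole RefSeq windows, which run past the transcription start (chr9:95509217-95509516 for this one). These 9 letters occurred in 83 of 35116 windows (0.236%), and among the Hedgehog genes in this PTCH1 window alone. The shorter core CCACCCA, which lies within the longer motif, was in 9.19% of all windows and, among the Hedgehog genes, in the same PTCH1 window and in one of GLI2.

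The IHH window lay at chr2:219060922-219061171 and had a GC content of 75.6%. The SHH window lay at chr7:155812464-155812713, had a GC content of 44.4%, and starts from the RefSeq transcription start, which is upstream of the end of SHH in the deposited table.
IHH: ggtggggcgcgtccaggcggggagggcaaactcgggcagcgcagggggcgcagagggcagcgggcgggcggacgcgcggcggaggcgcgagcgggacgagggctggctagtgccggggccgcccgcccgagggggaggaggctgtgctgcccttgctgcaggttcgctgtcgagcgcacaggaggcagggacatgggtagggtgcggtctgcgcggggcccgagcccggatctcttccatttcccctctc
SHH: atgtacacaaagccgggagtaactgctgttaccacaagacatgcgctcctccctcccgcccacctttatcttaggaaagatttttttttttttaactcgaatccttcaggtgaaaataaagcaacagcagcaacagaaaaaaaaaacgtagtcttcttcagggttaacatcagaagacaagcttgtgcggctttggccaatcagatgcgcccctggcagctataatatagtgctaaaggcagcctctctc
RA receptors bind repeats of AGGTCA, so these 6 letters were searched as well, on both strands of the same whole windows. They were in 13.8% of all promoter windows and in none of the 13 windows of the Hedgehog genes. A match or its absence describes these letters in these windows only.

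SHH (chr7:155799980-155809163, minus strand in the deposited GRCh38 coordinates) was the ligand of the untreated cells and reached its highest level after RA followed by CHIR/BMP4. At day 6 it stood at 30.2, 24.5 and 27.0 CPM in the untreated libraries and at 20.3, 20.5 and 18.4 CPM after RA. At day 9 the untreated libraries held 87.6, 54.98 and 59.1 CPM and those given RA alone 50.5, 24.1 and 26.8 CPM. All of these groups lay below 100 CPM, and neighbouring groups among RA day 9, untreated day 6, CHIR/BMP4 and RA day 6 overlapped in their order. With CHIR/BMP4 alone the libraries were spread most widely, at 44.2, 26.8 and 5.08 CPM. With RA before CHIR/BMP4 they held 489, 500 and 558 CPM, each more than 5 times the highest library of any other group.

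Within CHIR/BMP4-treated cells, RA beforehand thus went with 516 ± 37.0 CPM of SHH against 25.37 ± 19.6 CPM without it, a 21.0-fold difference (log2 4.39, SE 0.52, adjusted p = 1.65e-05). The replicate spread of the CHIR/BMP4 group entered this value: without its replicate 1 the log2 difference was 5.20. Among cells given RA, adding CHIR/BMP4 raised SHH 15.7-fold (log2 3.97, SE 0.51, adjusted p = 1.69e-05). Given alone, neither treatment was called as raising it. After RA alone SHH was 1.38-fold below untreated cells at day 6 (adjusted p = 0.547) and 2.10-fold below at day 9 (adjusted p = 0.0845), neither of which passed the test. In fits of only the groups compared both passed (adjusted p = 0.00266 and 0.0416). CHIR/BMP4 alone went with a 2.81-fold fall (adjusted p = 0.0304), a call that was lost without untreated day 9 replicate 1 (adjusted p = 0.135) or CHIR/BMP4 replicate 2 (0.0589) and with only those groups in the fit (0.237), while without CHIR/BMP4 replicate 1 the log2 difference went from -1.49 to -2.30. The interaction, that is the RA difference at day 9 with CHIR/BMP4 minus that without, was 5.46 on the log2 scale (SE 0.72, adjusted p = 3.04e-05), 6.27 without CHIR/BMP4 replicate 1, and 5.94 with adjusted p = 0.23 once the read make-up was a covariate.

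IHH (chr2:219054424-219060921, minus strand), known for signalling in gut endoderm and growth plate cartilage, was the RA-associated ligand. It stood at 2.14, 5.41 and 4.29 CPM in untreated day 6 libraries and at 221, 252 and 252 CPM after 24 h of RA. By day 9 the libraries given RA alone held 24.4, 17.6 and 8.44 CPM and the untreated ones 2.29, 0.681 and 1.21 CPM. Libraries given RA alone lay above the untreated ones at both days, with no overlap. CHIR/BMP4 alone gave 9.77, 5.76 and 2.64 CPM, and RA followed by CHIR/BMP4 gave 37.2, 47.4 and 35.8 CPM. The group means spanned 173-fold, the widest range of the 9 genes.

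RA at day 6 raised IHH 61.7-fold (log2 5.95, SE 0.43, adjusted p = 9.83e-08). From day 6 to day 9 after RA it fell 14.8-fold (log2 -3.89, SE 0.35, adjusted p = 4.9e-07), yet remained 8.99-fold above untreated day 9 cells (adjusted p = 0.000262). The RA difference itself was smaller at day 9 than at day 6, by 2.78 on the log2 scale as fitted (interaction -2.78, adjusted p = 0.017). This interaction passed only with untreated day 9 replicate 1 included: without that library it was -1.85 with adjusted p = 0.402, and the RA difference at day 9 went from log2 3.17 to 4.09. Within CHIR/BMP4-treated cells RA beforehand raised IHH 6.89-fold (adjusted p = 6.89e-05), and log2 2.78 became 3.41 without CHIR/BMP4 replicate 1. CHIR/BMP4 after RA raised it 2.45-fold (adjusted p = 0.00675). Without RA the 3.20-fold rise with CHIR/BMP4 had an adjusted p of 0.0452. It was not called without any 1 of the untreated day 9 libraries or without CHIR/BMP4 replicate 1 or 2 (adjusted p = 0.0758 to 0.212), and was called without CHIR/BMP4 replicate 3 (adjusted p = 0.00722).

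**Figure D1:**
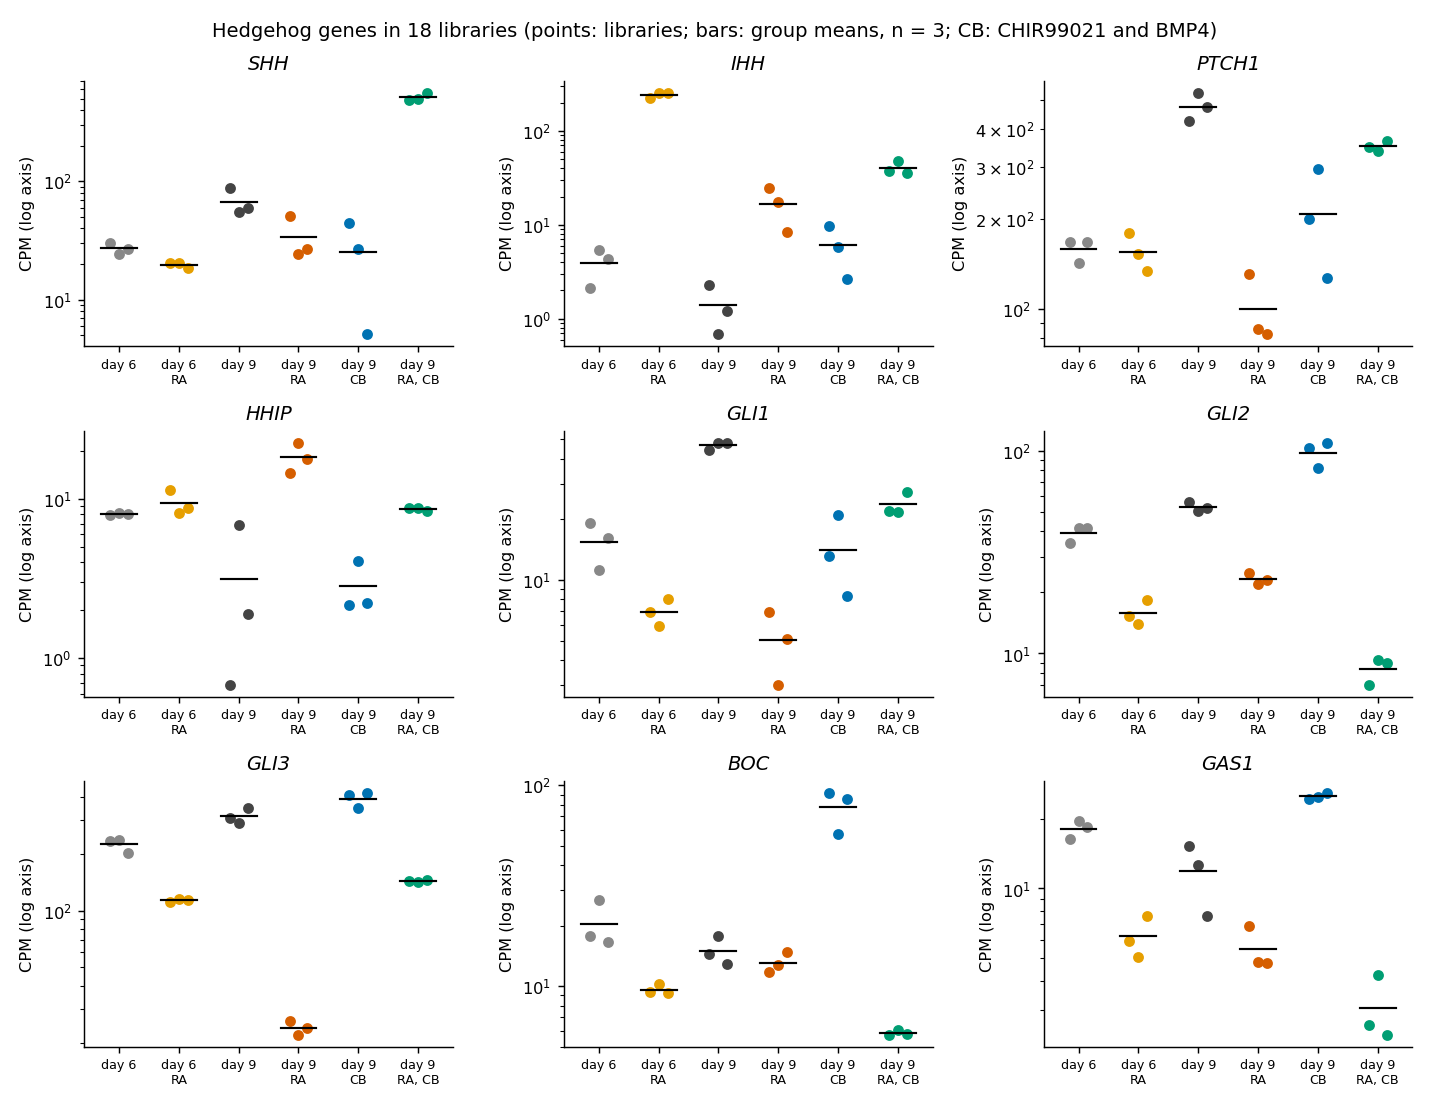
Level of each Hedgehog gene in every library, in CPM on log axes, by group (points are the 3 libraries, bars their mean). SHH was highest after RA followed by CHIR/BMP4 (489 to 558 CPM), IHH was highest at day 6 after RA (221 to 252 CPM), and GLI3 was lowest at day 9 after RA alone (22.0 to 26.0 CPM).

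Per length, the ligands together reached similar levels in 2 groups through different genes. SHH, IHH and DHH summed to 607 ± 47.0 TPM at day 6 after RA and to 569 ± 40.0 TPM after RA followed by CHIR/BMP4, and to between 31.1 and 70.3 TPM (group means) in the other 4 groups. IHH made up 96.9% ± 0.368 of the sum at day 6 after RA, whereas SHH made up 83.4% ± 2.705 after RA followed by CHIR/BMP4. In untreated day 9 cells SHH made up 94.8% ± 1.41 of a sum of 51.6 ± 13.5 TPM, and in untreated day 6 cells 72.8% ± 10.7 of 31.1 ± 1.80 TPM. At day 9 after RA alone the shares were 44.9% ± 10.2 for SHH and 54.9% ± 10.3 for IHH. DHH, the remaining human ligand, had 1 to 9 counts summed over the 3 libraries of any group.

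**Figure D2:**
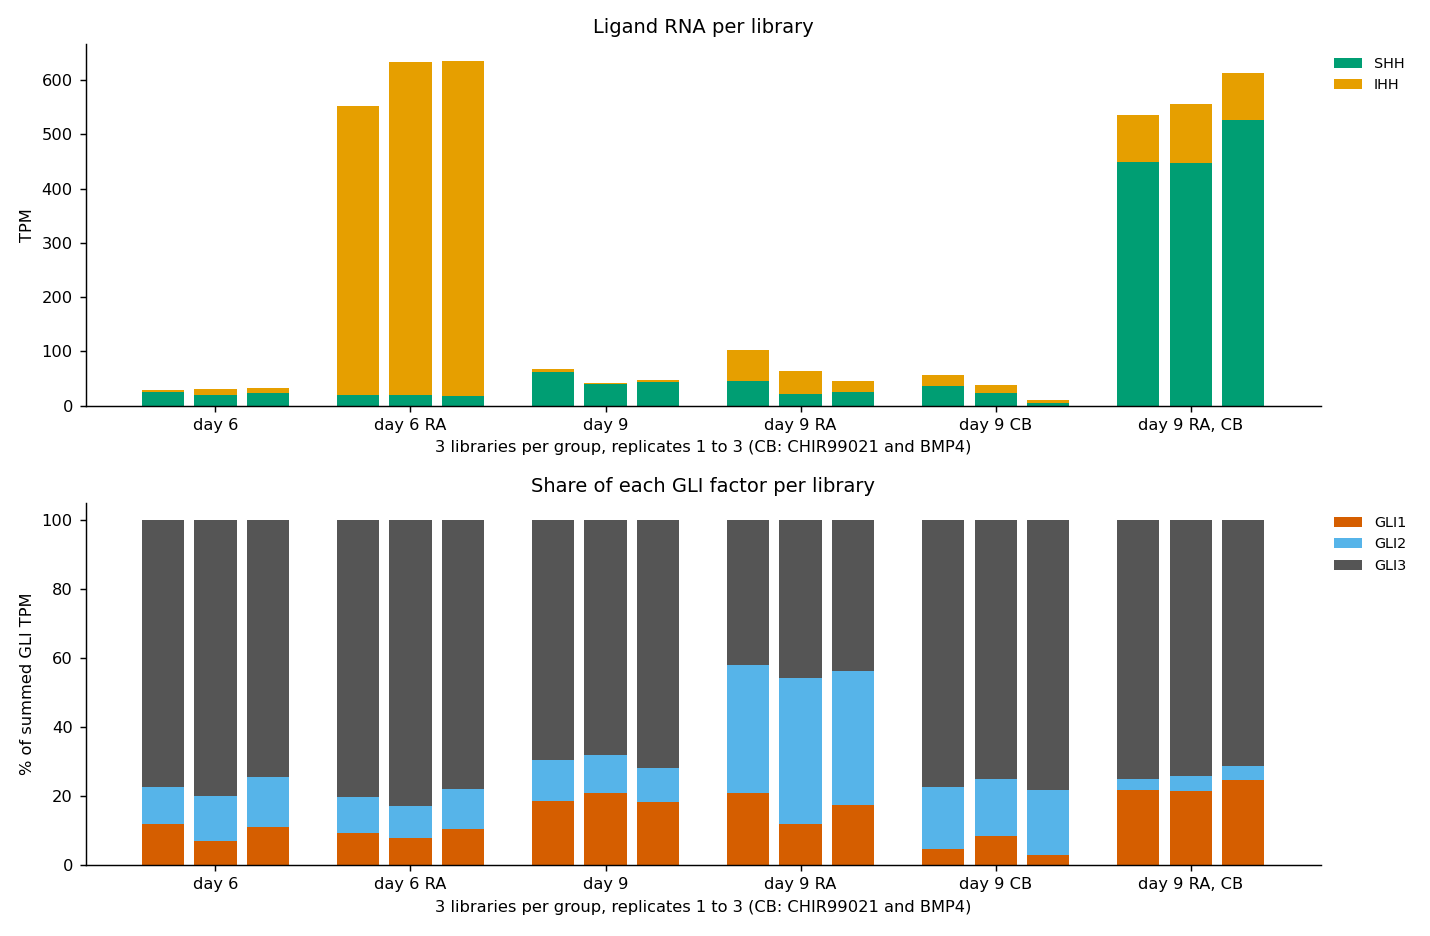
Upper panel, SHH and IHH in TPM stacked for each library, in which day 6 RA libraries (orange IHH) and RA then CHIR/BMP4 libraries (green SHH) reach 553 to 635 and 536 to 613 TPM of ligand. Lower panel, GLI1, GLI2 and GLI3 as a percentage of their summed TPM in each library, in which GLI3 holds 41.9% to 45.8% at day 9 after RA alone and 68.1% to 82.8% in all other libraries.

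PTCH1 (chr9:95442980-95509266, minus strand), both the receptor and a target gene, did not follow the ligand sum across groups. Untreated day 9 libraries held the most, 425, 528 and 473 CPM, against 168, 142 and 168 CPM in untreated day 6 libraries. RA alone gave 180, 153 and 134 CPM at day 6 and 131, 86.3 and 82.4 CPM at day 9. Untreated cells therefore rose with time where cells given RA did not. CHIR/BMP4 alone gave 201, 295 and 127 CPM and RA followed by CHIR/BMP4 gave 350, 338 and 365 CPM. Untreated day 9 and RA then CHIR/BMP4 were first and second in the order without overlap, and the CHIR/BMP4 libraries overlapped untreated day 6.

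At day 6 PTCH1 differed 1.02-fold between RA and untreated cells, which did not pass the test (95% interval of the log2 difference -0.58 to 0.51, adjusted p = 0.926), although summed ligand RNA was 607 TPM against 31.1 TPM. At day 9 RA alone went with a 4.78-fold fall (log2 -2.26, SE 0.26, adjusted p = 4.75e-06), and the RA difference was lower at day 9 than at day 6 by the interaction (-2.22, adjusted p = 0.000189). CHIR/BMP4 alone lowered PTCH1 2.30-fold (adjusted p = 0.00151, and 0.0503 with only those groups in the fit). After RA, CHIR/BMP4 raised it 3.54-fold (log2 1.82, SE 0.26, adjusted p = 3.23e-05). RA before CHIR/BMP4 raised it 1.70-fold (log2 0.77, adjusted p = 0.0225), a call that was lost without CHIR/BMP4 replicate 1 or 3 or RA then CHIR/BMP4 replicate 1 or 3 (adjusted p = 0.0529 to 0.0647) and with only those 2 groups in the fit (0.134). Without treatment PTCH1 rose 2.97-fold from day 6 to day 9 (adjusted p = 0.00021), and after RA it fell 1.57-fold (adjusted p = 0.0449). That last call was lost without RA day 6 replicate 1 or 2 or RA day 9 replicate 2 or 3 (adjusted p = 0.0782 to 0.154).

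GLI1 (chr12:57460151-57472264, plus strand), an activator whose own gene is a pathway target, had the pattern most like that of PTCH1. Untreated libraries held 19.2, 11.1 and 16.1 CPM at day 6 and 44.3, 47.7 and 47.5 CPM at day 9. RA alone gave 6.95, 5.89 and 8.07 CPM at day 6 and 6.90, 3.03 and 5.11 CPM at day 9. The RA libraries lay below the untreated ones at both days without overlap. CHIR/BMP4 alone gave 13.2, 20.9 and 8.34 CPM, and RA followed by CHIR/BMP4 gave 22.1, 21.8 and 27.2 CPM. As for PTCH1, untreated day 9 and RA then CHIR/BMP4 came first and second in the order.

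RA lowered GLI1 2.28-fold at day 6 (adjusted p = 0.00658) and 9.59-fold at day 9 (log2 -3.26, SE 0.32, adjusted p = 2.61e-07), and the interaction with day was -2.07 (adjusted p = 0.0017). CHIR/BMP4 lowered it 3.42-fold without RA (adjusted p = 5.17e-05) and raised it 4.86-fold after RA (adjusted p = 1.74e-05). The difference between these, 4.05 on the log2 scale, passed the test as an interaction (adjusted p = 9.32e-07). RA before CHIR/BMP4 raised GLI1 1.73-fold (adjusted p = 0.0246), and this call was lost without CHIR/BMP4 replicate 1 or 3 or RA then CHIR/BMP4 replicate 3 (adjusted p = 0.0722 to 0.0973) and with only those 2 groups in the fit (0.114). Among 12930 candidate genes, PTCH1 and GLI1 were each other's nearest by Pearson correlation of log2 CPM over the 18 libraries (r = 0.93), followed for PTCH1 by SYNGR1 and CYBRD1 (both r = 0.91) and for GLI1 by KAT6B (0.93) and D2HGDH (0.92). The libraries fall into 6 separate groups, so these values describe likeness across groups and carry no test. For SHH the nearest were BAAT (0.91), HORMAD2 (0.90) and SOX5 (0.88). BAAT, with 4 to 14 counts summed over a group, and HORMAD2, with 0 to 4, were barely detected outside RA followed by CHIR/BMP4 (74 and 125 counts), so they entered the comparison only through the group where SHH was high. SOX5 was at 56.7 CPM there and 8.15 to 10.1 CPM (group means) elsewhere. For IHH the nearest were KDM1A (0.97), MTTP and C1orf131 (both 0.96).

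GLI1 TPM per TPM of summed ligand put the groups in another order. It was 0.453 ± 0.126 in untreated day 9 cells, 0.306 ± 0.170 with CHIR/BMP4 alone and 0.272 ± 0.0817 in untreated day 6 cells. Cells that had seen RA had lower ratios, at 0.0459 ± 0.0209 at day 9 after RA alone, 0.0251 ± 0.00222 after RA followed by CHIR/BMP4 and 0.00719 ± 0.00121 at day 6 after RA. The highest ratio of any RA library, 0.0691, lay below the lowest of any library without RA, 0.125. For PTCH1 the corresponding group means were 1.002, 0.971 and 0.599 without RA and 0.193, 0.0800 and 0.0346 with RA. The 2 groups with the most ligand RNA held different amounts of target RNA: at day 6 after RA PTCH1 was at 20.8 ± 2.90 TPM and GLI1 at 4.35 ± 0.706 TPM, and after RA followed by CHIR/BMP4 they were at 45.4 ± 2.95 and 14.3 ± 2.18 TPM. No correlation between ligand and target is given, because the libraries fall into separate groups.

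**Figure D3:**
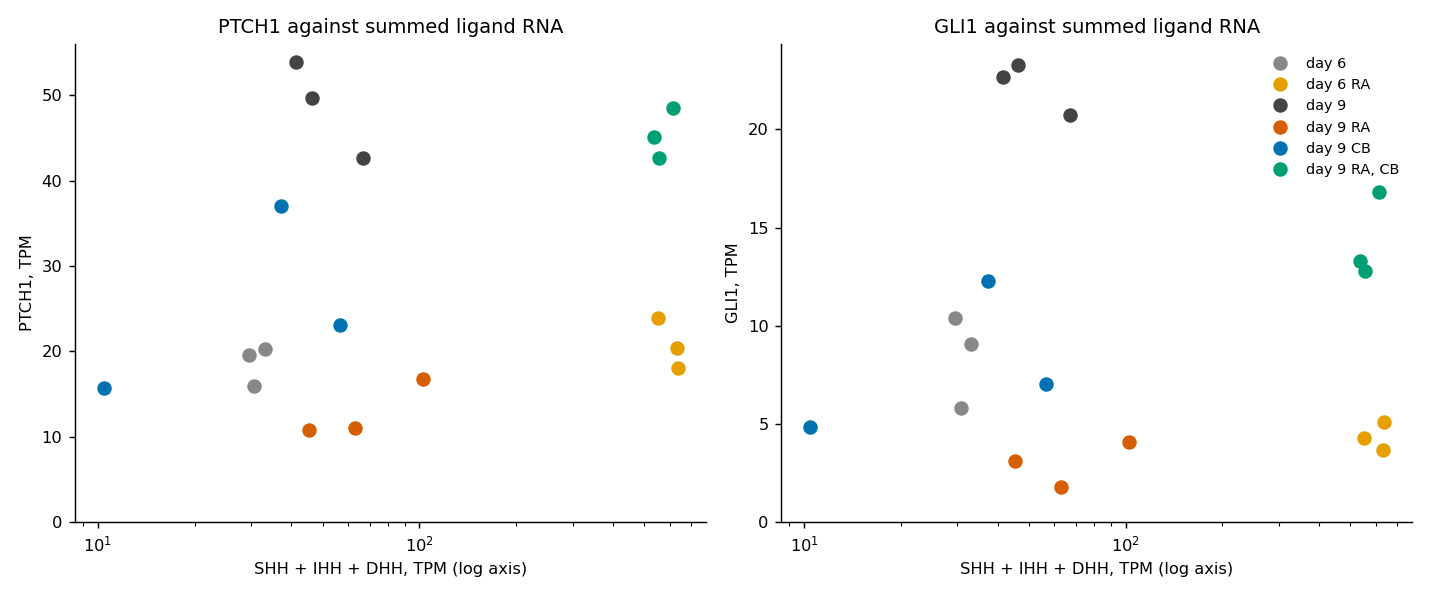
Summed ligand RNA (SHH, IHH and DHH, TPM, log axis) against PTCH1 (left) and GLI1 (right) in TPM, one point per library, coloured by group. Untreated day 9 libraries have the highest GLI1 (20.7 to 23.3 TPM) at 41.5 to 67.0 TPM of ligand, while day 6 RA libraries have 3.67 to 5.08 TPM of GLI1 at 553 to 635 TPM of ligand.

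Within the CHIR/BMP4 group, replicate 3 had the lowest SHH, IHH, PTCH1 and GLI1 of the 3 libraries and the highest GLI2 and GLI3. Its level of FOXA2, a foregut endoderm factor, was also the lowest, at 11.5 CPM against 17.8 and 27.4 CPM in replicates 1 and 2. Replicate 1 had more SHH and less FOXA2 than replicate 2. Across groups FOXA2 was highest at day 6 after RA (226, 239 and 239 CPM), where the SHH mean was lowest. It stood at 170, 175 and 169 CPM after RA followed by CHIR/BMP4. RA before CHIR/BMP4, which went with more SHH, raised FOXA2 9.50-fold (adjusted p = 3.17e-09). Of 6 definitive endoderm markers, FOXA2 among them, 5 rose and 1 fell in that comparison, where 43.3% of all genes were called. Their sum was 365 to 388 CPM with RA beforehand and 97.1 to 123 CPM with CHIR/BMP4 alone. Of 8 foregut epithelium markers, FOXA2 again among them, 3 rose and 2 fell in the same comparison. Those 8 summed to 4833 to 5188 CPM with RA beforehand and to 4467 to 5034 CPM with CHIR/BMP4 alone. SHH also rose with CHIR/BMP4 after RA (15.7-fold), where 64.4% of all genes were called. There 3 of the 6 definitive endoderm markers rose and 3 fell, and of the 8 foregut epithelium markers 1 rose and 6 fell. After RA alone the definitive endoderm sum was 454 to 506 CPM and the foregut epithelium sum 10692.2 to 10968.5 CPM. The part of endoderm content in these SHH differences was not tested.

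HHIP (chr4:144646156-144745271, plus strand), which binds ligand and limits its reach, is a target gene as well but was ordered differently from PTCH1 and GLI1. It was highest at day 9 after RA alone, at 14.6, 22.3 and 17.8 CPM, and stood at 0.683, 6.81 and 1.90 CPM in untreated day 9 libraries. At day 6 it held 7.91, 8.12 and 8.05 CPM without and 11.4, 8.17 and 8.78 CPM with RA. The groups with the lowest PTCH1 and GLI1 means and the highest means of both were thus, for HHIP, the highest and among the lowest. CHIR/BMP4 alone gave 2.17, 4.10 and 2.23 CPM and RA followed by CHIR/BMP4 gave 8.80, 8.74 and 8.41 CPM.

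RA at day 9 raised HHIP 8.27-fold (log2 3.05, SE 0.49, adjusted p = 7.29e-05), with log2 2.07 without untreated replicate 1 and 4.25 without untreated replicate 2, the library at 6.81 CPM. At day 6 the 1.17-fold difference did not pass (adjusted p = 0.692), and the interaction with day was 2.82 (adjusted p = 0.00269), 1.85 and 4.02 without the same untreated day 9 replicates. RA before CHIR/BMP4 raised HHIP 3.23-fold (adjusted p = 0.00791), while CHIR/BMP4 after RA lowered it 2.12-fold (adjusted p = 0.0235). After RA it rose 1.96-fold from day 6 to day 9 (adjusted p = 0.0461), a call lost with DESeq2 (0.105) and without any 1 library of the groups other than RA day 9 replicate 1 (0.0569 to 0.157). The fall with CHIR/BMP4 after RA was called neither by DESeq2 (adjusted p = 0.0575) nor without RA day 9 replicate 2 or any single RA then CHIR/BMP4 library (0.0566 to 0.0949). Untreated cells lost HHIP from day 6 to day 9 (3.61-fold, adjusted p = 0.0115), a call that ended without untreated day 9 replicate 1 (log2 -0.88, adjusted p = 0.0518) or with only those groups in the fit (0.147) and whose log2 value was -3.05 without replicate 2. It also ended with the read make-up as a covariate (log2 -1.88, adjusted p = 0.0672). With CHIR/BMP4 alone the difference was log2 0.27 (adjusted p = 0.742) and had no stable sign, from -0.71 without untreated replicate 1 to 1.47 without untreated replicate 2 (adjusted p = 0.00294). Exons of HHIP overlap the antisense gene HHIP-AS1, at 0.756 to 3.73 CPM (group means), and the counting's strand setting is unstated in the sources used here, so reads from the overlap cannot be assigned with certainty.

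The group with the highest HHIP, RA alone at day 9, also had the highest summed levels of mesenchyme and cardiac markers, though not of endothelial, neural or pluripotent ones. Its foregut epithelium markers were high as well, summing to 10692.2 to 10968.5 CPM against 3609 to 5188 CPM in the other day 9 groups. With RA at day 9 all 8 of them rose, where 65.1% of all genes were called. The 10 mesenchyme markers summed to 4242 to 5519 CPM there and to 619 to 1816 CPM in all other groups, and the 6 cardiac markers summed to 3302 to 4559 CPM against 21.1 to 170 CPM. After RA followed by CHIR/BMP4 the mesenchyme sum was 619 to 645 CPM and the cardiac sum 21.1 to 29.1 CPM. No gene of either list was without reads in any group. From day 6 to day 9 after RA, 7 of 10 mesenchyme markers rose and 2 fell, and 6 of 6 cardiac markers rose, where 28.5% of all genes were called up and 30.3% down. The part of these cells in the levels of HHIP, GLI2 and GLI3 in this group was not tested.

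GLI3 (chr7:41960950-42237209, minus strand), the main source of GLI repressor, was the most abundant GLI factor per length in each of the 6 groups, with the narrowest margin at day 9 after RA alone (7.76 TPM against 6.99 TPM of GLI2). At day 6 it held 234, 237 and 201 CPM without RA and 111, 115 and 113 CPM with RA. At day 9 it held 308, 289 and 351 CPM in untreated cells and 26.0, 22.0 and 24.0 CPM after RA alone. The RA libraries were below the untreated ones at both days, and by day 9 the gap had widened. CHIR/BMP4 alone gave 407, 347 and 417 CPM and RA followed by CHIR/BMP4 gave 143, 141 and 146 CPM.

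RA at day 9 lowered GLI3 13.2-fold (log2 -3.72, SE 0.10, adjusted p = 1.98e-18), against 1.98-fold at day 6 (adjusted p = 1.47e-09), and the difference between days was -2.74 (adjusted p = 7.24e-14). This was the only call in RA at day 9 that held with the read make-up as a covariate (log2 -3.16, adjusted p = 9.25e-06). CHIR/BMP4 after RA raised GLI3 6.00-fold (log2 2.58, SE 0.10, adjusted p = 3.49e-16), and RA before CHIR/BMP4 lowered it 2.73-fold (adjusted p = 2.31e-12). Without RA, CHIR/BMP4 raised it 1.24-fold (adjusted p = 0.00362) with overlapping libraries, so the interaction was 2.28 (adjusted p = 1.76e-12).

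GLI2 (chr2:120792281-120992653, plus strand), the main activator downstream of SMO, changed in another direction than GLI3 when CHIR/BMP4 followed RA. It was highest with CHIR/BMP4 alone, at 102, 82.1 and 109 CPM, and lowest after RA followed by CHIR/BMP4, at 7.03, 9.24 and 8.96 CPM. Untreated libraries held 35.1, 41.5 and 41.5 CPM at day 6 and 55.6, 50.4 and 52.0 CPM at day 9, and RA alone gave 15.2, 13.9 and 18.3 CPM and then 24.9, 21.9 and 22.9 CPM. None of the neighbours in this order overlapped. RA before CHIR/BMP4 lowered GLI2 12.01-fold (log2 -3.59, SE 0.13, adjusted p = 6.39e-16), and CHIR/BMP4 after RA lowered it 2.83-fold (adjusted p = 2.13e-09), where without RA CHIR/BMP4 raised it 1.85-fold (adjusted p = 2.98e-07). RA alone lowered it 2.53-fold at day 6 (adjusted p = 6.41e-09) and 2.29-fold at day 9 (adjusted p = 6.36e-09), and the difference between days did not pass (0.14, 95% interval -0.22 to 0.50, adjusted p = 0.519).

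The make-up of the GLI pool therefore differed between groups. GLI3 made up 69.9% to 80.4% of summed GLI TPM in 5 groups (group means) and 43.9% ± 1.95 at day 9 after RA alone, where GLI2 made up 39.5% ± 2.62 and the pool was smallest, at 17.8 ± 2.21 TPM. The pool was largest with CHIR/BMP4 alone, at 154 ± 10.5 TPM. After RA followed by CHIR/BMP4 it held 63.3 ± 4.21 TPM, of which GLI1 made up 22.5% ± 1.89 and GLI2 4.01% ± 0.542. With CHIR/BMP4 alone the shares were 5.33% ± 2.83 for GLI1 and 17.9% ± 1.22 for GLI2.

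BOC (chr3:113212116-113287458, plus strand) and GAS1 (chr9:86944362-86947506, minus strand), cell-surface proteins that present ligand to PTCH1, were highest and lowest in the same groups as GLI2. BOC held 91.2, 57.5 and 85.4 CPM with CHIR/BMP4 alone and 5.74, 6.03 and 5.79 CPM after RA followed by CHIR/BMP4. GAS1 held 24.3, 24.8 and 25.7 CPM and 2.58, 4.22 and 2.34 CPM in the same groups. For both genes these were the highest and the lowest of the 6 groups, with no overlap with their neighbours. RA before CHIR/BMP4 lowered BOC 13.4-fold (log2 -3.75, SE 0.19, adjusted p = 3.91e-12) and GAS1 8.28-fold (log2 -3.05, SE 0.21, adjusted p = 1.55e-10).

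Without RA, CHIR/BMP4 raised BOC 5.25-fold (adjusted p = 6.95e-10) and GAS1 2.00-fold (adjusted p = 0.000108). After RA it lowered BOC 2.25-fold (adjusted p = 7.76e-05) and GAS1 1.78-fold (adjusted p = 0.00852), the latter not called without RA then CHIR/BMP4 replicate 1 (adjusted p = 0.0695). The sum of the mesenchyme markers was 1469 to 1816 CPM with CHIR/BMP4 alone and 619 to 645 CPM after RA followed by CHIR/BMP4. It was highest at day 9 after RA alone (4242 to 5519 CPM). BOC, GAS1 and GLI2 held 13.1, 5.49 and 23.2 CPM there (group means). With CHIR/BMP4 without RA 5 of the 10 markers rose and 1 fell (42.8% of all genes called). PRRX1 (9.28-fold, adjusted p = 0.000155) and POSTN (4.87-fold, adjusted p = 0.00123) rose, and COL3A1 fell (3.05-fold, adjusted p = 0.0318). With RA before CHIR/BMP4 3 rose and 4 fell (43.3%). Among these DCN (36.5-fold, adjusted p = 5.99e-11) and PDGFRA (10.1-fold, adjusted p = 7.05e-06) rose and COL1A2 (13.1-fold, adjusted p = 3e-12) fell. The part of mesenchyme cells in the levels of BOC, GAS1 and GLI2 was not tested. Both interactions passed, at -3.56 for BOC (adjusted p = 1.89e-09) and -1.83 for GAS1 (adjusted p = 5.15e-05). RA at day 6 lowered BOC 2.07-fold (9.38, 10.3 and 9.20 CPM against 17.7, 26.7 and 16.6 CPM, adjusted p = 0.000188), and at day 9 the groups overlapped (11.7, 12.7 and 14.8 CPM against 14.5, 17.7 and 13.0 CPM, adjusted p = 0.424). GAS1 was lowered 2.97-fold at day 6 (5.96, 5.07 and 7.64 CPM against 16.4, 19.6 and 18.4 CPM, adjusted p = 2.15e-06) and 2.32-fold at day 9 (6.90, 4.80 and 4.78 CPM against 15.3, 12.6 and 7.60 CPM, adjusted p = 5.46e-05). Exons of BOC overlap CFAP44 on the other strand (9.76 to 28.7 CPM, group means), those of GLI1 overlap ARHGAP9 (0.359 to 0.863 CPM), and those of PTCH1 an antisense gene, AL161729.1, with the same uncertainty as for HHIP.

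**Figure D4:**
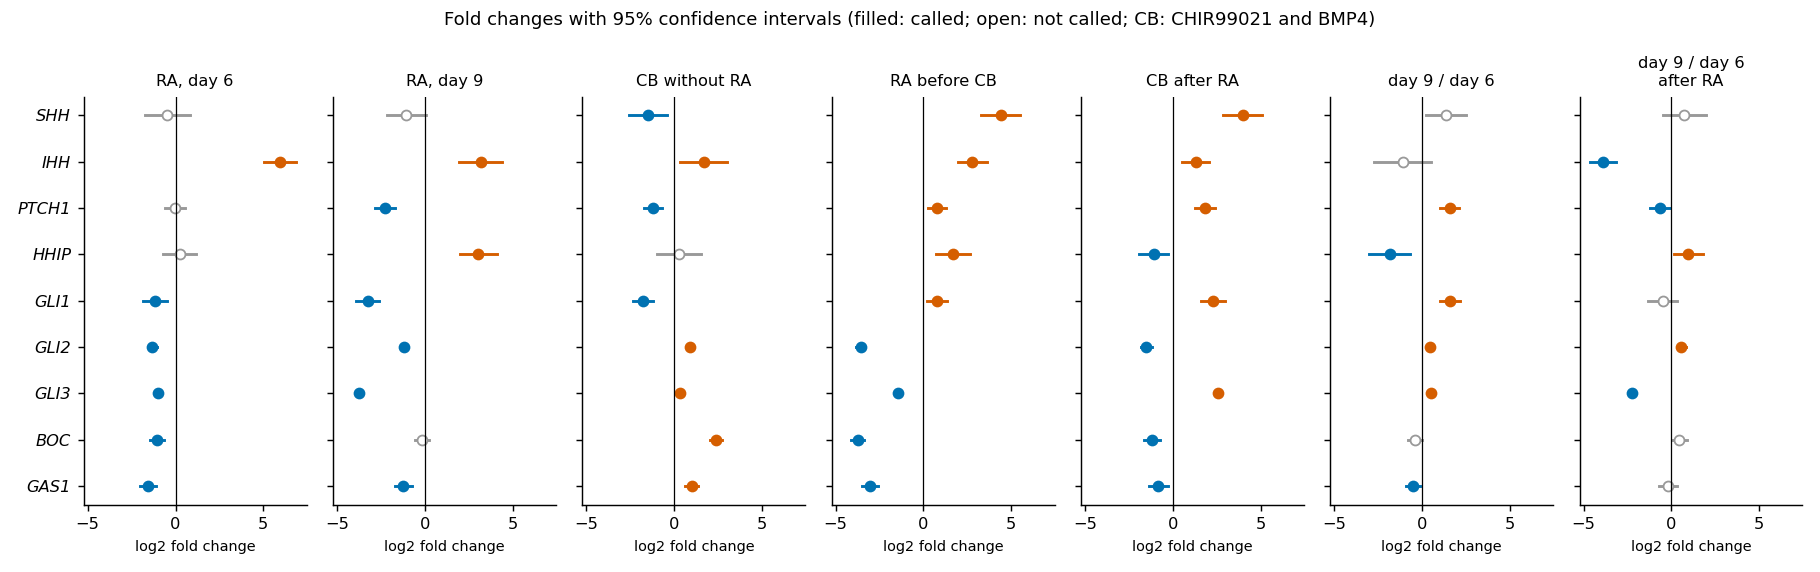
Log2 fold change of each Hedgehog gene with its 95% confidence interval in the 7 comparisons of 2 groups (filled points were called, orange up and blue down, and open points were not). With RA before CHIR/BMP4 both ligands, PTCH1, HHIP and GLI1 lie to the right of 0 and GLI2, GLI3, BOC and GAS1 to the left.

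Counted over the 9 genes, RA at day 6 raised 1 (IHH) and lowered 5 (GLI1, GLI2, GLI3, BOC and GAS1), where 48.7% of all tested genes were called (25.3% up and 23.4% down). The median log2 difference of the 9 was -0.98, against 0.0031 for all genes. With the read make-up as a covariate 0 of the 9 passed in edgeR, and IHH stood at log2 6.52 with adjusted p = 0.163. RA at day 9 raised 2 (IHH and HHIP) and lowered 5 (PTCH1, GLI1, GLI2, GLI3 and GAS1), against 65.1% of all genes called (32.5% up and 32.5% down), with a median of -1.20 against -0.022, and 1 of the 9, GLI3, passed with the covariate. CHIR/BMP4 without RA raised 5 (IHH, GLI2, GLI3, BOC and GAS1) and lowered 3 (SHH, PTCH1 and GLI1), against 42.8% (21.0% up and 21.8% down), with a median of 0.31 against 0.0031, and 1 passed with the covariate, BOC (log2 4.11, adjusted p = 0.00242).

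RA before CHIR/BMP4 raised 5 (SHH, IHH, PTCH1, HHIP and GLI1) and lowered 4 (GLI2, GLI3, BOC and GAS1), against 43.3% of all genes called (21.2% up and 22.1% down), and the median was 0.77 against -0.0058. CHIR/BMP4 after RA raised 5 (SHH, IHH, PTCH1, GLI1 and GLI3) and lowered 4 (HHIP, GLI2, BOC and GAS1), against 64.4% (32.1% up and 32.3% down), with a median of 1.30 against 0.017. These comparisons share the RA then CHIR/BMP4 libraries. Day 9 against day 6 raised 4 without treatment (PTCH1, GLI1, GLI2 and GLI3) and lowered 2 (HHIP and GAS1), against 46.9% (24.0% up and 22.9% down). The GAS1 call of log2 -0.53 was lost without untreated day 6 replicate 2 or 3 or untreated day 9 replicate 2 or 3 (adjusted p = 0.0526 to 0.124), and SHH, 2.53-fold higher at day 9, did not pass (adjusted p = 0.0525, and 0.0341 with DESeq2). With the read make-up as a covariate HHIP (0.0672) and GAS1 (0.101) were lost and BOC was called (log2 -0.78, adjusted p = 0.00675). After RA, day 9 against day 6 raised 2 (HHIP and GLI2) and lowered 3 (IHH, PTCH1 and GLI3), against 58.8% (28.5% up and 30.3% down). Of the interactions, RA by CHIR/BMP4 was called for 7 of the 9 (4 up, 3 down, against 53.4% of all genes, 25.5% up and 27.9% down) and RA by day for 6 (2 up, 4 down, against 50.9%, 24.9% up and 26.0% down), and with the read make-up as a covariate the former was called for 4, GLI1, GLI2, GLI3 and BOC.

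The rest of the pathway was read from lists of known components. Of 10 tested genes for ligand release and reception, 2 rose and 3 fell with RA before CHIR/BMP4, where 43.3% of all genes were called, and 3 rose and 3 fell with CHIR/BMP4 without RA, against 42.8%. All 10 were called with RA at day 9 (4 up, 6 down), against 65.1%, and 9 with CHIR/BMP4 after RA (5 up, 4 down), against 64.4%. DISP1, which releases lipid-modified ligand from the producing cell, was highest with CHIR/BMP4 alone, as BOC was. It stood at 151 ± 11.3 CPM there and at 15.9 to 29.3 CPM (group means) elsewhere. Its lowest group was day 6 after RA, whereas that of BOC was RA followed by CHIR/BMP4. CHIR/BMP4 raised DISP1 6.86-fold without RA (adjusted p = 3.38e-15), and RA before CHIR/BMP4 lowered it 6.45-fold (adjusted p = 3.16e-15). SCUBE1, of a family that helps to solubilise ligand, went the other way, falling 5.66-fold with CHIR/BMP4 without RA (adjusted p = 7.12e-08) and rising 3.31-fold with RA before CHIR/BMP4 (adjusted p = 1.12e-05). LRP2, an endocytic receptor that binds SHH, rose 3.79-fold with RA before CHIR/BMP4 (adjusted p = 4.15e-05).

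SMO, the signal transducer that PTCH1 inhibits, ranged from 160 ± 15.4 CPM at day 9 after RA to 270 ± 9.28 CPM at day 6 after RA. It fell 1.37-fold with RA at day 9 (adjusted p = 2.71e-05) and 1.69-fold from day 6 to day 9 after RA (adjusted p = 2.07e-08), and rose 1.41-fold with CHIR/BMP4 after RA (adjusted p = 8.22e-06). It was 1.04-fold apart with RA before CHIR/BMP4 (95% interval of the log2 difference -0.21 to 0.11, adjusted p = 0.614). SUFU, which holds GLI proteins in the cytoplasm, ranged from 33.9 ± 1.93 to 56.1 ± 0.536 CPM and was lowered 1.48-fold by RA at day 9 (adjusted p = 4.14e-06). Of 14 signal transduction genes, 3 rose and 2 fell with RA before CHIR/BMP4 (43.3% of all genes called), 4 rose and 5 fell with CHIR/BMP4 after RA (64.4%), and 6 rose and 3 fell with RA at day 9 (65.1%), counts near or below the shares over all genes. Changes there were small, and the largest with CHIR/BMP4 after RA was a 1.71-fold rise of ULK3, a kinase that acts on GLI proteins (adjusted p = 1.65e-06).

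Vertebrate Hedgehog signalling runs through the primary cilium. Of 8 genes for transport in the cilium, 5 rose and 0 fell with RA at day 6, where 48.7% of all genes were called, with IFT88 raised 2.14-fold (adjusted p = 3.82e-07) and IFT172 1.96-fold (adjusted p = 4.38e-08). With RA before CHIR/BMP4 2 rose and 0 fell, against 43.3%. DYNC2H1, the motor of transport back from the ciliary tip, fell 2.49-fold with RA at day 9 (adjusted p = 2.24e-10) and rose 2.80-fold with CHIR/BMP4 after RA (adjusted p = 1.89e-11), and with RA at day 6, where GLI3 fell, it rose 1.34-fold (adjusted p = 0.00165).

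Of 8 tested genes reported to respond to Hedgehog in foregut mesenchyme or other tissue, 2 rose and 3 fell with RA before CHIR/BMP4, where 43.3% of all genes were called, and 5 rose and 1 fell from day 6 to day 9 without treatment, against 46.9%. With RA at day 9 (65.1%) and with CHIR/BMP4 without RA (42.8%) 2 rose and 5 fell. OSR1, a transcription factor of foregut mesenchyme, stood at 42.0 ± 7.97 CPM at day 6 after RA and at 0.473 to 6.54 CPM (group means) elsewhere, and RA at day 6 raised it 86.1-fold (adjusted p = 3.88e-12). FOXL1, a winged-helix factor of gut mesenchyme, was highest in untreated day 9 cells (11.1 ± 0.268 CPM), as PTCH1 and GLI1 were, and fell 12.7-fold with CHIR/BMP4 without RA (adjusted p = 3.61e-11) and 16.5-fold with CHIR/BMP4 after RA (adjusted p = 1.12e-10). BMP4, whose protein was also added in the CHIR/BMP4 groups, fell 6.02-fold with RA at day 6 (714 ± 28.9 to 119 ± 5.15 CPM, adjusted p = 3.96e-11) and 1.89-fold with RA before CHIR/BMP4 (adjusted p = 4.67e-05). FOXF1, a mesenchymal Hedgehog target in lung and gut, had 3 to 9 counts summed over the 3 libraries of any group and was not tested.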

How the data were processed

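The authors deposited raw counts per gene and TPM, 1 column per library for 18 libraries, with no pooling of replicates. STAR 2.7.9 and GRCh38 are named per the submitters' processing notes, and per the labels' protocols libraries came from the TruSeq stranded mRNA kit. How reads were counted, with which annotation and strand, is not given in the sources used here.

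Titles gave each sample's group and replicate number. In R 4.3.3, edgeR 4.0.16 was fitted to the deposited counts of all 18 libraries with 1 mean per group, TMM factors, filterByExpr (minimum count 10) and robust quasi-likelihood dispersion, with Benjamini-Hochberg adjustment over 15531 genes. Median biological variation (BCV) between libraries was 8.52%. 36 genes without a symbol held 0.00102% of counts and stayed out. Libraries held 5.79 to 25.37 M counts, which sets the precision of low genes.

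Alternatives were RLE and upper quartile factors, no filter, DESeq2 1.42.0, limma 3.58.1 on log2(deposited TPM + 1), a replicate block, a fit of only the groups compared, a read make-up covariate and leaving out each library. The covariate was the share of scaled level from treated-high genes among those differing 10-fold or more by treatment, with a 2 CPM minimum, chosen without untreated day 6 replicates 1 and 3. Where 1 library of a group was left out, the remaining libraries shared the spread of all groups. The method was tested on simulated data with known changes. Every simulated gene had the same dispersion, so that test did not cover genes of wider spread, such as SHH with CHIR/BMP4 alone.

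Named genes were the 9 members, up to 3 called genes per list and comparison with the largest change and at least 5 CPM in the higher group, DHH, SMO and SUFU always, and the 3 genes most correlated with SHH, IHH, PTCH1 and GLI1. FOXF1 and the neighbouring genes lay outside this rule. FOXA2, PRRX1, POSTN, COL3A1, DCN, PDGFRA and COL1A2 met it but were added later. The values of all of these were known when they were chosen. One gene that the rule names is not reported here. Members and lists were chosen with earlier results of these data known. Alignment of the coding sequences used Biopython 1.88.

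Other lists held markers of definitive endoderm, endothelium, neural cells, notochord and axial mesoderm and pluripotent cells. Their summed levels ran over 97.1 to 901 CPM, 17.2 to 244 CPM, 4.49 to 49.9 CPM, 3.57 to 17.4 CPM and 997 to 3272 CPM across libraries.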

Additional observations from a re-analysis of the deposited data

Results flagged for a closer look

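The response to RA at day 9 differed with CHIR/BMP4 by an interaction term in 7 of the 9 genes (edgeR, Benjamini-Hochberg adjusted). On the log2 scale the response was higher with CHIR/BMP4 by 5.46 for SHH (adjusted p = 3.04e-05), 3.02 for PTCH1 (adjusted p = 9.82e-06), 4.05 for GLI1 (adjusted p = 9.32e-07) and 2.28 for GLI3 (adjusted p = 1.76e-12). The differences were -2.39 for GLI2 (adjusted p = 1.28e-10), -3.56 for BOC (adjusted p = 1.89e-09) and -1.83 for GAS1 (adjusted p = 5.15e-05). For PTCH1 and GLI1 RA lowered the level without CHIR/BMP4 and raised it with it in the main fit. With only those 2 groups in the fit the rises were not called (adjusted p = 0.134 and 0.114). With the read make-up as a covariate the falls were not called (adjusted p = 0.181 and 0.0601).

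The response to RA differed between day 9 and day 6 in 6 of the 9 genes. The differences were -2.78 for IHH (adjusted p = 0.017), -2.22 for PTCH1 (adjusted p = 0.000189), 2.82 for HHIP (adjusted p = 0.00269), -2.07 for GLI1 (adjusted p = 0.0017), -2.74 for GLI3 (adjusted p = 7.24e-14) and 0.87 for BOC (adjusted p = 0.0135). For IHH the response fell in size, and for GLI1 and GLI3 it grew. Both kinds of interaction hold untreated groups, so the read make-up moves with them. With it as a covariate, RA by CHIR/BMP4 was called for 4 of the 9 genes and RA by day for 5, IHH being lost from the latter (-2.62, adjusted p = 0.0667).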

How the results depend on the processing

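Each of the 81 member values (9 genes, 7 comparisons and 2 interactions) kept direction and side of the threshold with RLE factors, 80 with upper quartile factors, 77 without the filter, 75 with DESeq2, 75 with limma on log2 TPM, 71 in fits of only the groups compared and 51 with the read make-up covariate. Of 594 values with 1 library left out, 550 kept both. The replicate numbers did not pair the libraries across all groups: 4 of 45 same-numbered pairs had r above 0.1 (range -0.11 to 0.23), and 6 of 18 libraries correlated best with their own number. All 4 lay between groups without RA. For replicate 1, r was 0.228 (untreated day 6 and day 9), 0.196 (untreated day 9 and CHIR/BMP4) and 0.111 (untreated day 6 and CHIR/BMP4). For replicate 2 it was 0.135 (untreated day 6 and day 9). With the replicate block 80 of 81 calls were as before, and HHIP in day 9 against day 6 after RA was lost (log2 0.94, adjusted p = 0.0508).

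Within groups the covariate varied almost only among untreated day 6 libraries, so what it changed rests on those 3. With it the count of members called went from 6 to 0 for RA at day 6, from 7 to 1 for RA at day 9, from 8 to 1 for CHIR/BMP4 without RA and from 7 to 4 for RA by CHIR/BMP4. For day 9 against day 6 after RA the 5 called members became 3 without the filter and 3 to 5 with 1 library left out. Values that changed sign were BOC with the covariate (0.32 for RA at day 6, 1.53 at day 9) and with limma on TPM (0.10, RA at day 9), PTCH1 in RA at day 6 with limma on TPM (0.15), without untreated replicate 1 (0.0044) or RA replicate 3 (0.059), HHIP in CHIR/BMP4 without RA with DESeq2 (-0.083), without untreated replicate 1 (-0.71) or CHIR/BMP4 replicate 2 (-0.01; the highest such value was 1.47), and IHH in RA by CHIR/BMP4 without CHIR/BMP4 replicate 1 (0.24; the lowest such value was -1.31). BOC in RA at day 6 was a call, and the other values had not passed the test. The cause was not tested. TPM moved the median of all genes by 0.17 (RA at day 6), 0.26 (RA at day 9), 0.21 (CHIR/BMP4 without RA), -0.15 (day 9 against day 6) and -0.20 (RA by CHIR/BMP4) on the log2 scale. Levels of a few CPM, as for HHIP and IHH in untreated day 9 libraries, rest on 4 to 57 reads.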
